A study of Populus tremula x Populus alba with 24 samples.

Results

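The 10 genes described here encode the enzymes of monolignol synthesis that act after phenylalanine ammonia-lyase (PAL). They are 10 of the 42950 genes in the deposited gene table of a time course of poplar root RNA-seq. They were listed by identifier: C4H1 (Potri.013G157900), C4H2 (Potri.019G130700), 4CL3 (Potri.001G036900), HCT1 (Potri.003G183900), HCT6 (Potri.001G042900), C3H3 (Potri.006G033300), CCoAOMT1 (Potri.009G099800), CCoAOMT2 (Potri.001G304800), CCR2 (Potri.003G181400) and CAD1 (Potri.009G095800). The enzyme names follow the published nomenclature of Populus trichocarpa, since the deposited tables list identifiers alone. All plants were the hybrid Populus tremula x alba clone 717-1B4 (a single genotype), kept in vitro on vertical plates low in nitrogen and phosphate. Treated roots were immersed for 1 h in 10 nM of a lipo-chitooligosaccharide (LCO), a class of microbial signal molecule, from Rhizobium sp. IRBG74. The control solution held 0.005% ethanol, and control roots were sampled at time 0 only, collected at once. The labels do not plainly say whether the control roots had been immersed for 1 h, or in which solution. Each library was made from the pooled roots of 4 plants. The libraries used here were 3 controls, 2 each from 30 min and 2 h, and 3 from each of 15 min, 1 h, 4 h, 8 h and 24 h, 22 in all.

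Monolignols are the alcohols from which plants polymerise lignin, the phenolic polymer of secondary cell walls. The route starts from phenylalanine, and the enzymes after PAL hydroxylate, activate, methylate and reduce the resulting cinnamic acid. Cinnamate 4-hydroxylase (C4H) and 4-coumarate:CoA ligase (4CL) form the general phenylpropanoid trunk, which also feeds flavonoids and other soluble phenolics. Hydroxycinnamoyl transferase (HCT) joins the coumaroyl group to shikimate, while coumarate 3-hydroxylase (C3H) and caffeoyl-CoA O-methyltransferase (CCoAOMT) modify the ring. Cinnamoyl-CoA reductase (CCR) and cinnamyl alcohol dehydrogenase (CAD) carry out the last reductions to the alcohols. In roots, lignin is laid down in xylem vessels and in the barriers of the endodermis and outer cell layers.

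Levels are given in TPM (transcripts per 1e+06 transcripts), recovered from the deposited natural logarithms of TPM + 1. Differences are on the log2(TPM + 1) scale, which slightly understates the change of the least abundant genes. Genes averaging 1 TPM or more over the libraries were tested with limma, 25636 genes in all, and a gene was called where its Benjamini-Hochberg adjusted p over all of them was under 0.05. Adjusted p-values below are from that fit. Pools are biological replicates per the labels, which name no separate batches or days, so p-values measure the spread between pools of 1 clone. All comparisons with control share the same 3 libraries, so LCO cannot be told apart from time since immersion or, other than for 24 h, from the time of day. If the controls were not immersed, LCO cannot be told apart from the immersion and handling either. TPM keep no depth, so the depth of each library is unknown. Between 9029 and 13313 genes were listed at 0 per library, with the most in 30 min replicate 3. Libraries of a group correlated at Pearson's r of 0.881 to 0.979 over genes. In bulk RNA, fewer cells of a type and less RNA per cell cannot be told apart.

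The pathway genes rose late, apart from the CCoAOMT pair. At 8 h, 8 of the 10 genes were called higher than control, against 20.1% of all genes tested. At 24 h, 7 of the 10 passed, against the same share of all genes, 20.1%. At 4 h, 4 of the 10 were called higher, against 4.61% of all genes. An early group of 5 was called higher at 15 min, against 4.33% of all genes. None of the 10 was called lower at any time, against 3.73% of all genes at 15 min, 0.940% at 30 min, 1.27% for 1 h and 2.21% for 2 h. Of all genes, 4.95% were called lower by 4 h, 16.1% by 8 h and 15.8% by 24 h.

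The median log2 difference of the 10 genes was 0.73 at 15 min, 0.47 at 4 h, 1.18 at 8 h and 0.86 at 24 h. Over all genes tested the medians at these times lay between -0.01 and 0.05. The authors named the tables as quantile-normalized, which gives libraries nearly one distribution and by itself tends to hold such medians near 0. Between the early and the late rise, no member was called: at 30 min (background 0.839%), at 1 h (1.61%) and at 2 h (1.98%) the count was 0 of 10. At an unadjusted p under 0.05, the counts at those times were 1, 2 and 4. The medians there were 0.32, 0.30 and 0.45. Every 8 h library lay above every control library for 9 of the 10 genes, a separation seen in 31.3% of all genes, and every 24 h library for 8 of 10, against 30.2%. A moderated F test over the 7 times called 9 of the 10, CCoAOMT1 being the exception, against 58.9% of all genes. With a library left out it called 7 to 9. C4H1, 4CL3, HCT1, C3H3, CCR2 and CAD1 were called in all 22 of these fits, C4H2 in 18, HCT6 in 21, CCoAOMT2 in 7 and CCoAOMT1 in 2. C4H2 lost its F call without control replicate 1 (adjusted p = 0.0588), 15 min replicate 3 (0.0526), 8 h replicate 2 (0.0901) or 8 h replicate 3 (0.0967), and HCT6 without control replicate 3 (0.0514). CCoAOMT1 gained it without 30 min replicate 1 (0.0322) or 30 min replicate 3 (0.0113).

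**Figure D1:**
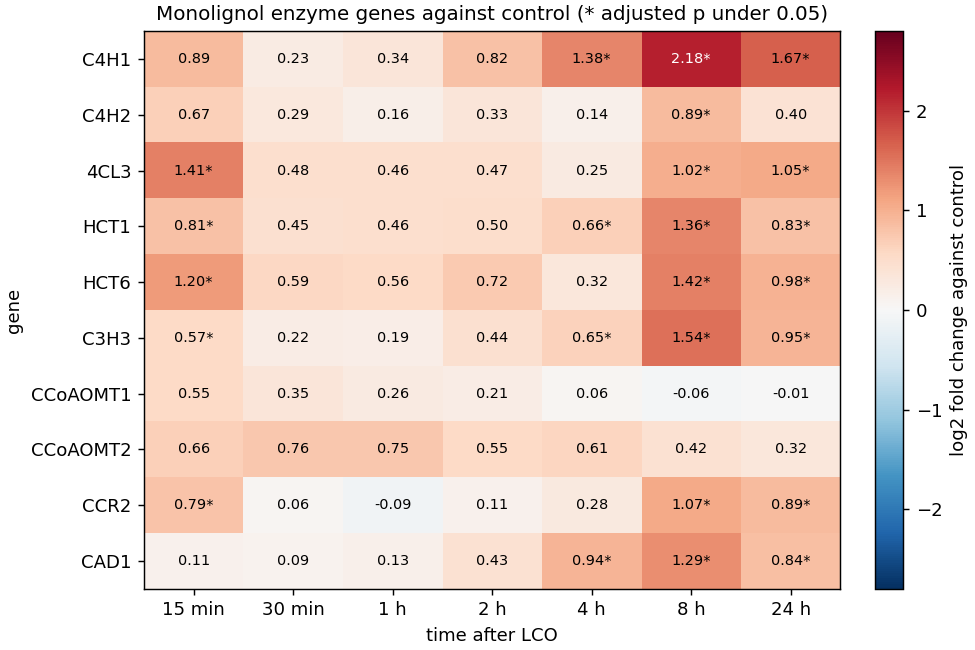
Heat map of the log2 difference from control, on the log2(TPM + 1) scale, for the 10 genes in pathway order (rows) at the 7 times after LCO (columns), with marked cells for adjusted p under 0.05 in limma. The 8 h column holds 8 marked cells, with C4H1 at 2.18 as its highest value, and the 30 min, 1 h and 2 h columns hold none.

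The C4H step carried both the greatest rise of the 10 genes and an unequal response of its pair of genes. C4H1, which hydroxylates cinnamic acid to coumaric acid, stood at 269.9, 360.1 and 375 TPM in the control libraries. It stood at 721, 1009 and 880.5 TPM at 4 h, at 1408, 1799 and 1358 TPM at 8 h, and at 988, 1260 and 944 TPM at 24 h. All 9 of these late libraries were above all controls, and the 8 h libraries were above those of every other time. C4H1 rose by a log2 difference of 1.38 (SE 0.30, adjusted p = 0.0058) at 4 h, 2.18 (SE 0.30, adjusted p = 3.89e-05) at 8 h and 1.67 (SE 0.30, adjusted p = 0.000414) at 24 h. At 8 h its mean was 1522 ± 242 TPM (SD, n = 3) against 335 ± 56.9 TPM (SD, n = 3). From 30 min to 2 h its libraries ranged from 317 to 702 TPM and overlapped the controls at 30 min and 1 h.

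C4H2, for the same reaction, stood at 195, 248 and 268 TPM in the controls and at 345, 479 and 499 TPM at 8 h. At 4 h it stood at 242, 281 and 254 TPM, within reach of the controls, and at 24 h at 282, 360.1 and 294 TPM, above all of them. It was called at 8 h alone, with a log2 difference of 0.89 (SE 0.22, adjusted p = 0.00523). At 24 h the difference was 0.40, with a 95% confidence interval from -0.07 to 0.87 and an adjusted p of 0.169. The C4H1 to C4H2 ratio was 1.38 to 1.45 in the 3 controls and 2.72 to 4.08 in the 6 libraries of 8 h and 24 h. On the log2 scale the late mean was 1.78 ± 0.20 (SD, n = 6) and the control mean 0.50 ± 0.04 (SD, n = 3). The difference of 1.28 gave p = 0.0119 in an exact two-sided permutation test, the smallest that its 84 arrangements allow, or 0.0357 adjusted over the 3 pairs tested. The ratio had already moved at 4 h, where the log2 ratios were 1.57, 1.84 and 1.79, all above the controls. With any of the 9 libraries left out, the difference stayed between 1.23 and 1.35, while the adjusted p lay between 0.0536 and 0.107 on fewer arrangements.

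**Figure D2:**
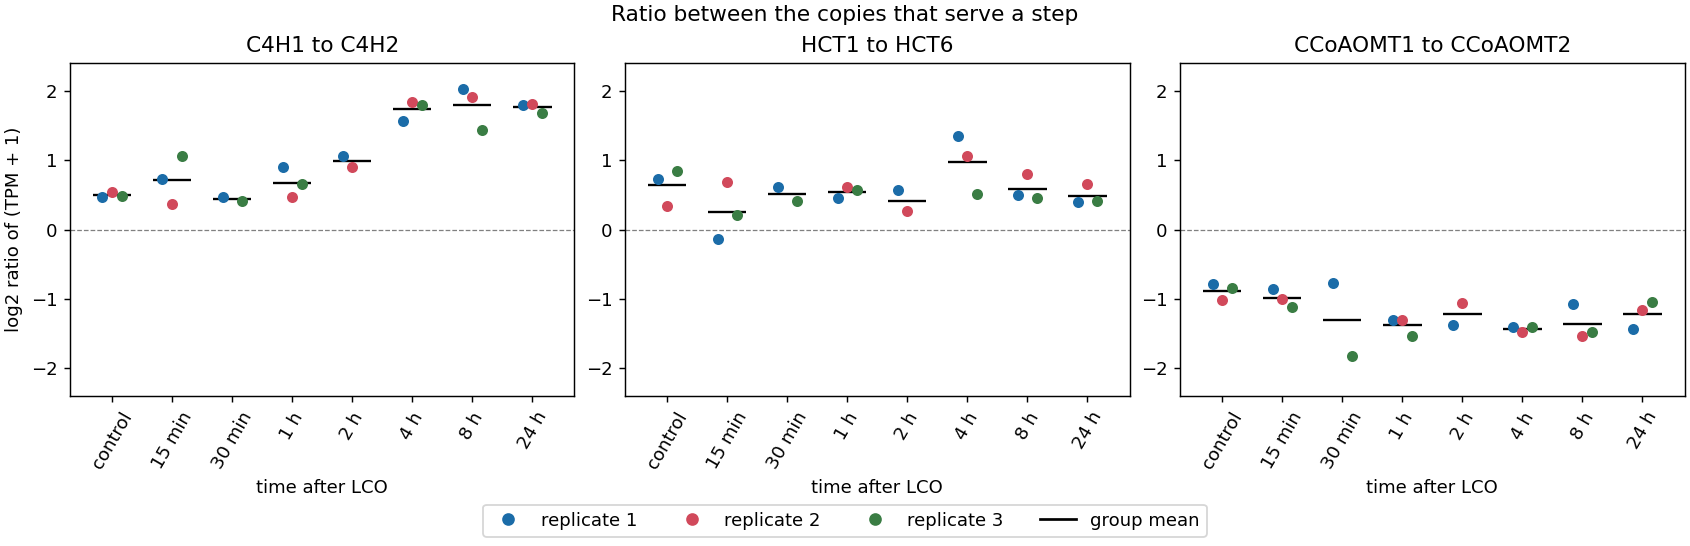
Log2 ratio of TPM + 1 between the genes of each pair for the same step (y axis) in each library, by time (x axis), one panel per pair. The C4H1 to C4H2 ratio lies near 0.50 in the controls and above 1.4 in each 8 h and 24 h library, while the HCT1 to HCT6 ratios of these groups overlap.

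4CL3, which ties coumaric acid to coenzyme A, was the gene with the greatest difference at 15 min. Its libraries stood at 83.9, 106 and 82.1 TPM in the control and at 365, 147 and 259 TPM at 15 min. The 15 min libraries lay above all controls, but the lowest of them, replicate 2, was much closer to the controls than the others. The log2 difference was 1.40 (SE 0.25, adjusted p = 0.0021). By 4 h 4CL3 stood at 109, 109 and 105 TPM, overlapping the controls, with a log2 difference of 0.25 (adjusted p = 0.633). It then rose again, to 168, 207 and 179 TPM at 8 h and 201, 226 and 147 TPM at 24 h. These late libraries were all above the controls, with log2 differences of 1.02 (SE 0.25, adjusted p = 0.00459) at 8 h and 1.05 (SE 0.25, adjusted p = 0.00365) at 24 h. In the interval from 30 min to 2 h its libraries ranged from 107 to 145 TPM.

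The steps around the shikimate ester were the least abundant of the pathway at HCT and moderately abundant at C3H. HCT joins the coumaroyl group to shikimate, C3H adds a hydroxyl to that ester, and HCT can release the caffeoyl group again. HCT1 stood at 27.9, 26.6 and 22.4 TPM in the controls. It stood at 37.2, 43.8 and 41.7 TPM at 4 h, at 63.1, 76.6 and 62.5 TPM at 8 h and at 42.8, 56.0 and 40.9 TPM at 24 h. Every HCT1 library after LCO lay above all 3 controls, the lowest being 31.0 TPM in 15 min replicate 2. HCT1 rose by a log2 difference of 0.66 (SE 0.20, adjusted p = 0.0485) at 4 h, 1.36 (SE 0.20, adjusted p = 9.53e-05) at 8 h and 0.83 (SE 0.20, adjusted p = 0.00442) at 24 h. The 4 h call was lost with any of the 3 controls or of the 3 libraries of 4 h left out, where the difference was 0.57 to 0.72 and the adjusted p 0.0794 to 0.164.

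HCT6 was the lowest of the 10 genes, at 16.4, 20.8 and 12.03 TPM in the controls. At 8 h it stood at 44.5, 43.7 and 45.4 TPM, a narrow spread above all controls, and at 24 h at 32.2, 35.2 and 30.6 TPM. HCT6 rose by 1.42 (SE 0.33, adjusted p = 0.00327) at 8 h and by 0.98 (SE 0.33, adjusted p = 0.0279) at 24 h on the log2 scale. The 24 h call was lost without control replicate 1 (0.0622), control replicate 3 (0.11), 24 h replicate 1 (0.063) or 24 h replicate 2 (0.079), given as adjusted p. At 4 h HCT6 overlapped the controls, at 14.0, 20.6 and 28.8 TPM. No unequal change of the pair was detected: the HCT1 to HCT6 log2 ratio was 0.53 ± 0.16 (SD, n = 6) late and 0.64 ± 0.26 (SD, n = 3) in the controls, with exact two-sided permutation p = 0.452, adjusted p = 0.452. With a library left out, the difference of -0.11 ranged from -0.26 to -0.01, and no test here shows that the pair's responses were equal.

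C3H3 had the smallest adjusted p of the 10 genes at 8 h. It stood at 119, 160.3 and 145 TPM in the controls, at 204, 265 and 199 TPM at 4 h, at 372, 466 and 396 TPM at 8 h and at 269.9, 297 and 251 TPM at 24 h. The 4 h, 8 h and 24 h libraries were all above the controls, and the 8 h libraries were above all others. C3H3 rose by a log2 difference of 0.65 (SE 0.16, adjusted p = 0.0139) at 4 h, 1.54 (SE 0.16, adjusted p = 2.94e-06) at 8 h and 0.95 (SE 0.16, adjusted p = 0.000257) at 24 h. The 4 h value was 0.53 (adjusted p = 0.0879) with control replicate 1 left out and 0.52 (adjusted p = 0.0945) with 4 h replicate 2 left out, so either library decided that call. At 2 h its libraries stood at 190 and 192 TPM, both above the controls, with an adjusted p of 0.211.

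**Figure D3:**
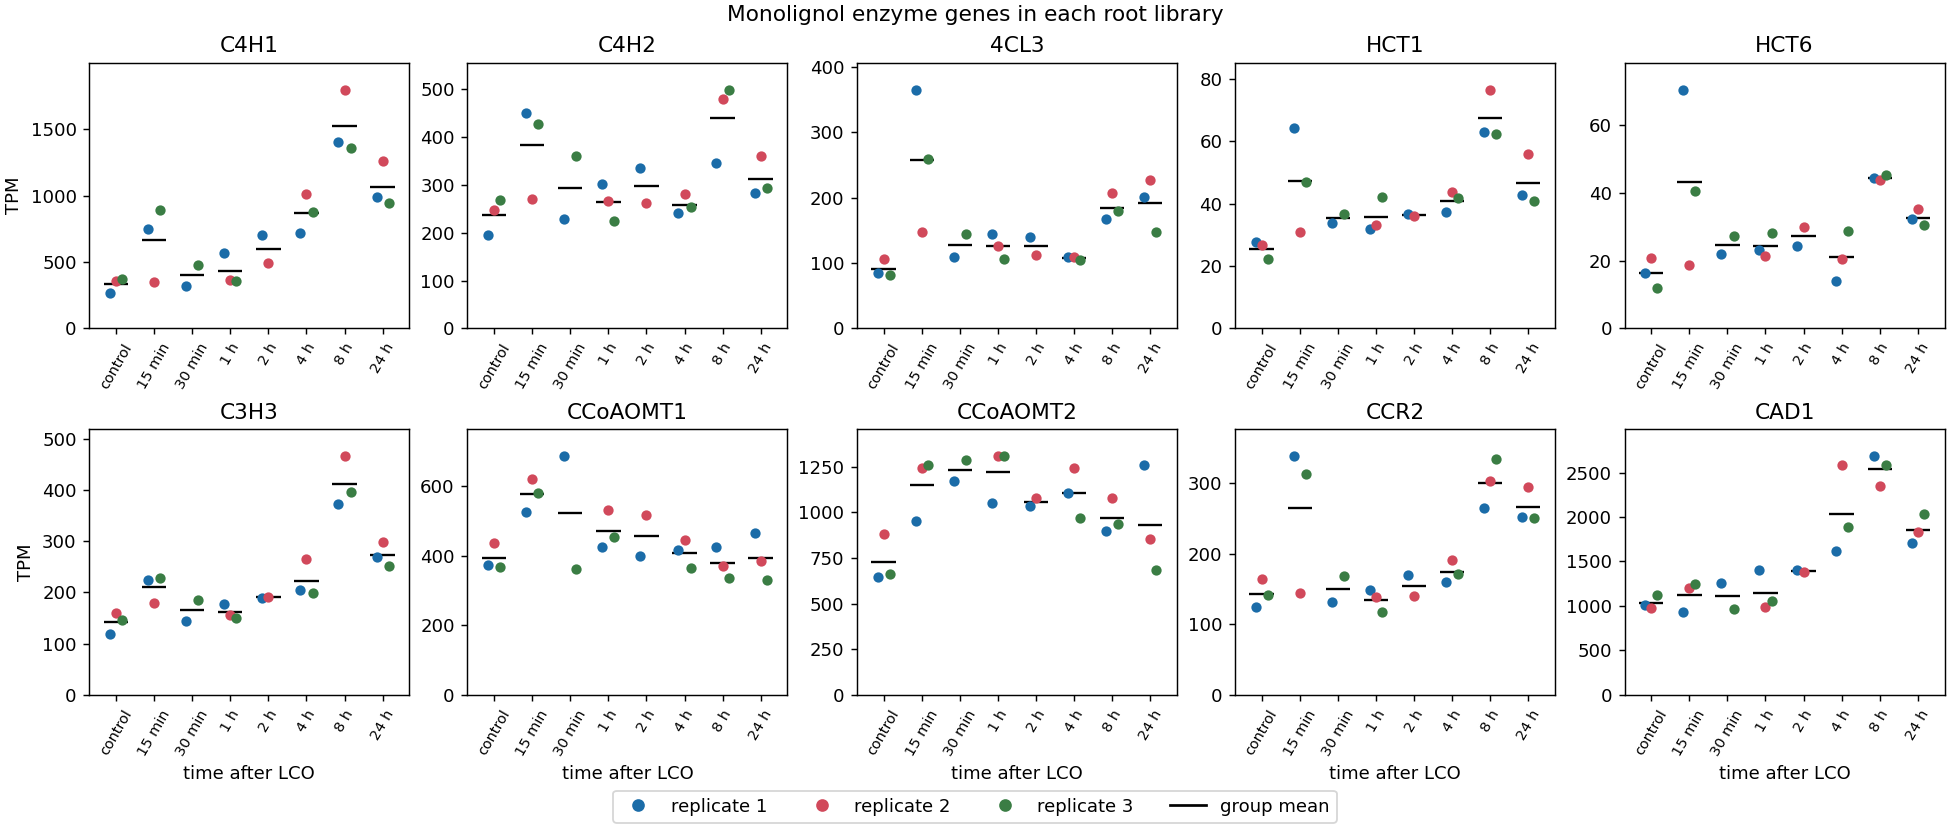
TPM of each of the 10 genes (y axis, linear scale from 0) in each library by time after LCO (x axis), with points for libraries and a bar for the group mean. C4H1 and C3H3 peak at 8 h with means of 1522 and 412 TPM, while CCoAOMT1 is near its control mean of 393 TPM at 8 h and 24 h.

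The CCoAOMT pair, which methylates caffeoyl-CoA to feruloyl-CoA, was not called late. CCoAOMT1 stood at 373, 437 and 368 TPM in the controls, at 426, 371 and 337 TPM at 8 h and at 464, 384 and 330.3 TPM at 24 h. The groups overlapped at both times. The log2 difference was -0.06 at 8 h (95% confidence interval -0.48 to 0.37, adjusted p = 0.846) and -0.01 at 24 h (-0.43 to 0.41, adjusted p = 0.975). At 15 min CCoAOMT1 stood at 526, 622 and 579.9 TPM, all above the controls, with a difference of 0.55 that was not called (adjusted p = 0.1). With library weights it was called there (0.48, adjusted p = 0.0186), in a fit that called 9491 of all genes in either direction.

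CCoAOMT2, with a control level of 646, 880.5 and 664 TPM, was above its controls in every library from 15 min to 8 h, though never called at a single time. It stood at 953, 1244 and 1260 TPM at 15 min, at 1174 and 1287 TPM at 30 min and at 1052, 1310 and 1310 TPM at 1 h. The early and middle values were its highest, and its mean was 1230 ± 79.9 TPM (SD, n = 2) at 30 min and 970.2 ± 96.7 TPM (SD, n = 3) at 8 h, a step that was not tested. The log2 differences were 0.66 at 15 min (adjusted p = 0.0515), 0.76 at 30 min (0.0839) and 0.75 at 1 h (0.0523). They passed by leaving out control replicate 2, the highest control, at 15 min (0.80, adjusted p = 0.0447) and 1 h (0.89, adjusted p = 0.0438), or 1 h replicate 1 at 1 h (0.86, adjusted p = 0.0429). At 4 h the difference was 0.61 (adjusted p = 0.0683). With library weights, CCoAOMT2 passed at 15 min (0.617, adjusted p = 0.0117), 1 h (0.713, adjusted p = 0.0103) and 4 h (0.508, adjusted p = 0.0309). At these times that fit called 9491, 4988 and 6376 of all genes in either direction. The F test over all times called CCoAOMT2 (adjusted p = 0.0456), but in 15 of 22 fits with a library left out it did not (adjusted p up to 0.148). It stayed called only without control replicate 2, 15 min replicate 1 or 2, 1 h replicate 1, 4 h replicate 3 or 24 h replicate 1 or 3. At 8 h its difference was 0.42 (95% confidence interval -0.0042 to 0.84, adjusted p = 0.113), and at 24 h it was 0.32 (-0.10 to 0.74, adjusted p = 0.225), where the libraries of 1260, 857 and 682 TPM overlapped the controls. The CCoAOMT1 to CCoAOMT2 log2 ratio lay below all controls in every library of 1 h, 2 h and 4 h, where it was not tested. It was -1.302, -1.296 and -1.527 at 1 h and -1.406, -1.482 and -1.405 at 4 h, and it overlapped the controls at 15 min and 30 min. The shift was thus not confined to the late times. Late, the ratio was -1.29 ± 0.22 (SD, n = 6) against -0.88 ± 0.11 (SD, n = 3) in the controls. That difference of -0.40 had exact two-sided permutation p = 0.0238, adjusted p = 0.0357. With a library left out it ranged from -0.47 to -0.35, with adjusted p from 0.0536 to 0.16. These rest on fewer arrangements, which raises the smallest p the test can give.

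Both genes of the last reductions rose late. CCR2, which reduces the CoA ester to the aldehyde, stood at 124, 164 and 142 TPM in the controls. It stood at 159, 191 and 171 TPM at 4 h, where it overlapped them, and at 265, 303 and 334 TPM at 8 h and 251, 295 and 250.3 TPM at 24 h, where it did not. CCR2 rose by 1.07 (SE 0.24, adjusted p = 0.00252) at 8 h and 0.89 (SE 0.24, adjusted p = 0.0081) at 24 h on the log2 scale. From 30 min to 2 h it showed no separation from the controls, with 117 to 169.9 TPM.

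CAD1, which reduces the aldehyde to the alcohol, was the most abundant of the 10 genes in each group other than 15 min to 1 h, where CCoAOMT2 had the higher mean. Its controls stood at 1009, 974 and 1127 TPM. It stood at 1614, 2584 and 1889 TPM at 4 h, at 2688, 2354 and 2584 TPM at 8 h and at 1708, 1836 and 2035 TPM at 24 h. All 9 late libraries were above all controls, and so were those of 2 h, at 1408 and 1387 TPM. CAD1 rose by a log2 difference of 0.94 (SE 0.19, adjusted p = 0.00312) at 4 h, 1.29 (SE 0.19, adjusted p = 7.1e-05) at 8 h and 0.84 (SE 0.19, adjusted p = 0.00229) at 24 h. At 15 min it was not called, with a difference of 0.11 (95% confidence interval -0.28 to 0.50, adjusted p = 0.763).

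The order of the 10 levels changed with the rise. TPM is a measure per transcript length, so levels can be set side by side between genes. In the controls the order of mean TPM was CAD1, CCoAOMT2, CCoAOMT1, C4H1, C4H2, CCR2, C3H3, 4CL3, HCT1 and HCT6. The libraries of CCoAOMT1 and C4H1 overlapped, as did those of CCR2 and C3H3, and the other neighbours did not. By 8 h C4H1 was in the second place, after CAD1, and CCoAOMT1 in the sixth. Among all 42950 genes ranked by mean TPM, CAD1 went from rank 69 in the controls to 23 at 8 h, C4H1 from 394 to 42, and C3H3 from 1084 to 302. CCoAOMT1 was at rank 318 and then 330, and HCT6, the lowest, at 8366 and then 3554.

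The early rise at 15 min differed between libraries. Beside 4CL3, the called genes were HCT1 (log2 difference 0.81, SE 0.20, adjusted p = 0.0199), HCT6 (1.19, SE 0.33, adjusted p = 0.034), C3H3 (0.57, SE 0.16, adjusted p = 0.037) and CCR2 (0.79, SE 0.24, adjusted p = 0.0488). C4H1 (0.89, adjusted p = 0.0713) and C4H2 (0.67, adjusted p = 0.0717) were not called. Replicates 1 and 3 stood clear of the controls and replicate 2 lay nearer to them. CCR2 stood at 338, 144 and 312 TPM, C4H1 at 749.6, 351 and 891 TPM, and HCT6 at 70.5, 18.8 and 40.6 TPM in replicates 1, 2 and 3. The median log2 difference of the 10 genes from the control mean was 1.05, 0.25 and 0.86 in these replicates. Genes listed at 0 numbered 9241, 12139 and 9265 in the same order, so replicate 2 stood apart there as well, and the part of that difference in the result was not tested. CCoAOMT1, CCoAOMT2 and CAD1 went against that order, with replicate 2 above replicate 1.

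With 15 min replicate 2 left out, 7 of the 10 genes were called higher at 15 min, with 3072 of the 25636 genes tested called higher in that fit. C4H1 then differed by 1.30 (adjusted p = 0.00226) and C4H2 by 0.90 (adjusted p = 0.00797). With 30 min replicate 3, the library with the most genes at 0, left out as well, the count was 8, in a fit that called 6761 of all genes in either direction against 2066 with all libraries in. In the other direction, the count fell to 1 without 15 min replicate 1, 15 min replicate 3 or control replicate 3, and to 2 without control replicate 1. Over all genes the calls fell as well, to 848, 1068, 1459 and 856 in that order, in either direction. 4CL3 was called in each of these fits, and the calls of HCT1, HCT6, C3H3 and CCR2 each depended on at least 3 of the 6 libraries. In a fit to the 6 libraries of both groups alone, none of the 10 was called at 15 min. That fit called 240 of the 25636 genes tested in either direction.

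**Figure D4:**
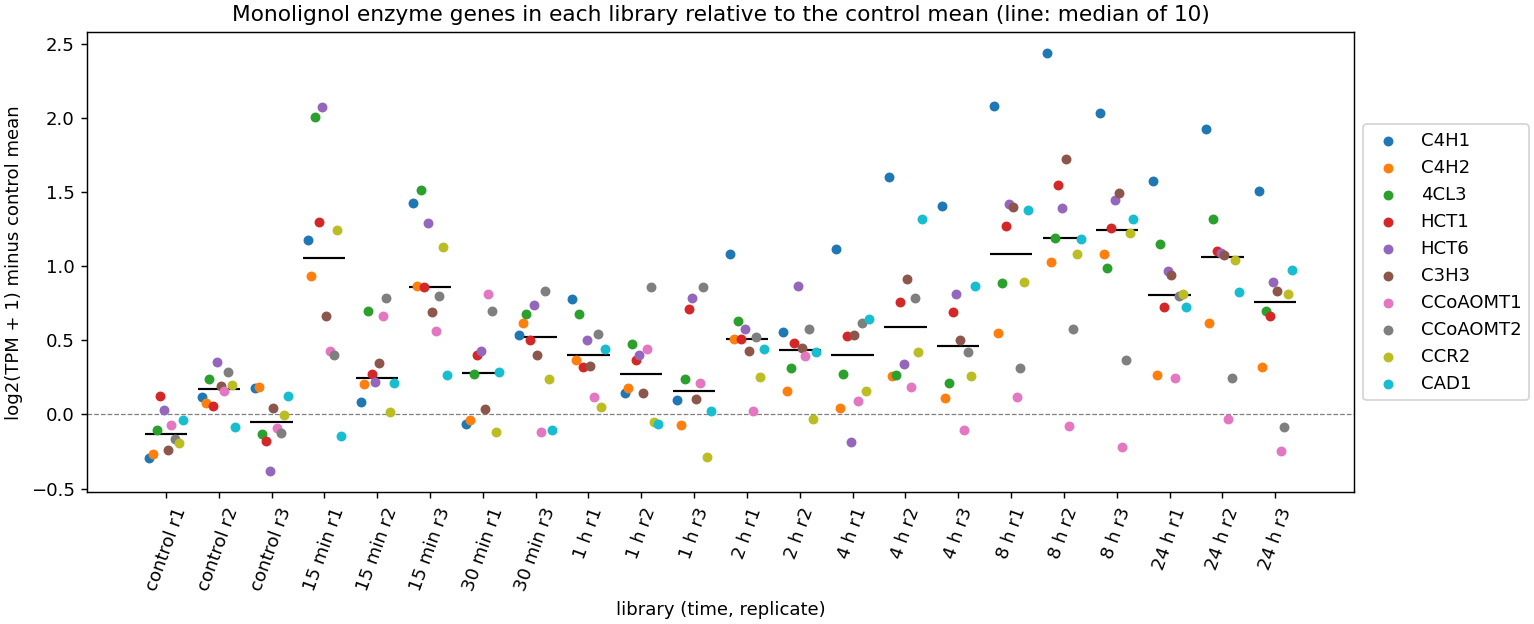
Log2 difference of each of the 10 genes from its control mean (y axis, log2(TPM + 1) scale) in each of the 22 libraries (x axis, grouped by time). At 15 min the median of the 10 genes is 0.25 in replicate 2 against 1.05 and 0.86 in the others, while at 8 h the 3 medians lie between 1.08 and 1.24.

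Sampled times were also compared with each other. No control mean enters these differences, though the control libraries share in the estimate of the spread. From 1 h to 4 h, 2 genes were called higher, against 5.48% of all genes. These were C4H1 (1.03, SE 0.30, adjusted p = 0.0302) and CAD1 (0.81, SE 0.19, adjusted p = 0.00863). From 4 h to 8 h, 6 genes were called higher, against 9.47% of all genes, without C4H1 and CAD1 among them. HCT6 (1.10, SE 0.33, adjusted p = 0.0299), C3H3 (0.89, SE 0.16, adjusted p = 0.00297) and CCR2 (0.78, SE 0.24, adjusted p = 0.0312) were called in this step. 4CL3 (0.77, adjusted p = 0.0405), C4H2 (0.75, adjusted p = 0.0277) and HCT1 (0.70, adjusted p = 0.0247) were called too. C4H1 (0.81, adjusted p = 0.0643) and CAD1 (0.35, adjusted p = 0.194) were not. The C4H1 value was larger than those of 4 called genes, and whether the steps differed between genes was not tested.

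Single libraries decided most of these step calls. Without 4 h replicate 2 neither C4H1 (0.92, adjusted p = 0.125) nor CAD1 (0.62, adjusted p = 0.0648) was called from 1 h to 4 h. That fit called 1524 of all genes in either direction. C4H1 also lost its call when replicate 2 (0.104) or replicate 3 (0.105) of 1 h, or replicate 3 of 4 h (0.0823), was omitted, given as adjusted p. From 4 h to 8 h, C3H3 was called in every fit with a library left out, and the number called was 1 to 4. Omitting replicate 1 of 4 h, or replicate 2 or 3 of 8 h, each gave 1 call. These fits called 1335, 2235 and 2428 of all genes in either direction, in that order. The fit with all libraries called 2428 of all genes higher alone. Omitting replicate 3 of 4 h gave 2 calls (3374 over all genes, either direction), replicate 2 of 4 h gave 3 (2858), and replicate 1 of 8 h gave 4. From 8 h to 24 h no gene was called in limma, and 4 had an unadjusted p under 0.05. Of all genes, 1.23% were called higher and 1.42% lower in that step. The median of the 10 log2 differences was -0.45 (range -0.59 to 0.05), and for 5 genes every 24 h library lay below every 8 h library, against 14.2% of all genes.

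The calls against control at 8 h did not turn on a library. The same 8 genes were called at 8 h in all 14 alternative fits, among them each fit without a control or an 8 h replicate. At 24 h, between 6 and 8 genes were called across the alternatives.

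Other genes of the route were taken as a list of 13 identifiers that published Populus trichocarpa work places in monolignol synthesis, some of them at the PAL step. The deposited tables do not annotate them, so they are given by identifier. All 13 were tested: 5 were called higher at 15 min (4.33% of all genes), none at 30 min (0.839%) or 1 h (1.61%), 3 by 2 h (1.98%) and 4 by 4 h (4.61%). The count was 9 for 8 h and 4 for 24 h, against 20.1% of all genes for each, and none was called lower. At an unadjusted p under 0.05 the counts at 30 min and 1 h were 6 and 4. Their median log2 difference was 0.95 at 8 h and 0.38 at 24 h, beside 1.18 and 0.86 for the 10 genes above. Potri.012G006400 had the greatest difference of the list. Its controls were 106, 165 and 140.4 TPM and its 8 h libraries 810.2, 917 and 1026 TPM, a log2 difference of 2.75 (adjusted p = 8.33e-07). It was called by 2 h, at 589 and 409 TPM (1.85, adjusted p = 0.000778), a time when none of the 10 was. Potri.008G038200 had control values of 103, 151 and 145 TPM and 8 h values of 369.9, 465 and 437 TPM (1.68, adjusted p = 1.87e-05). All 8 h libraries of both identifiers lay above all controls. Without both 15 min replicate 2 and 30 min replicate 3, the list's counts were 6, 0, 2, 4, 4, 10 and 6 over the 7 times.

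**Figure D5:**
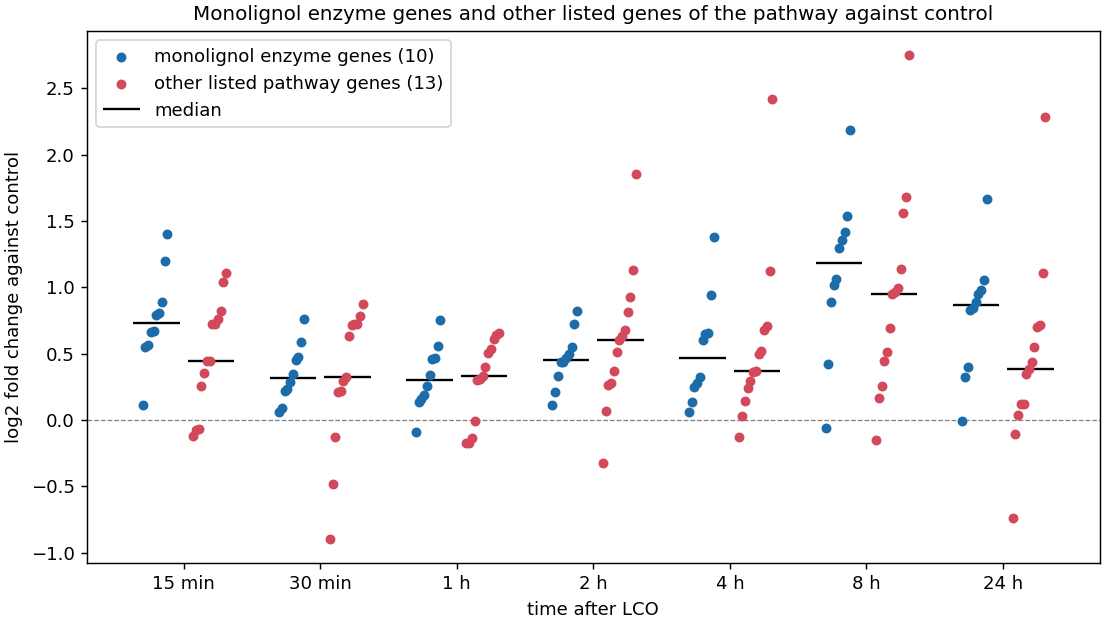
Log2 difference from control (log2(TPM + 1) scale) at each time after LCO for the 10 genes and for the 13 other listed identifiers of the route, one point per gene and a bar for each median. At 8 h the medians are 1.18 and 0.95, and the highest point of the listed identifiers is Potri.012G006400 at 2.75.

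Lignin is laid down together with cellulose in secondary walls, so 5 identifiers that published Populus trichocarpa lists name as secondary wall cellulose synthases are given beside the rise as values. Their summed level was 8.61 to 17.1 TPM in the controls and 14.5 to 22.9 TPM at 15 min. The 8 h libraries spanned 21.5 to 25.5 TPM, all above the controls, and the 24 h libraries 12.8 to 34.8 TPM, overlapping them. At 1 h the sums spanned 10.1 to 26.3 TPM, at 2 h they were 9.61 and 21.8 TPM, and at 4 h they spanned 12.6 to 16.9 TPM. The highest sum, 41.1 TPM, was in 30 min replicate 3, beside 20.3 TPM in replicate 1. None of the 5 was at 0 in any of the 22 libraries. At 8 h, 1 of the 5 was called higher and at 24 h 1, against 20.1% of all genes for each, and the F test called 0 of 5 against 58.9%, with 1 at an unadjusted p under 0.05. Their median log2 difference was 0.51 at 8 h and 0.45 at 24 h. The part that wall-forming cells had in the rise of the 10 genes was not tested.

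The transcript table, which was normalized separately, lists 14 transcripts of the 10 genes, and all were tested among 29885. Called higher were 8 of 14 at 8 h, where 29.6% of all transcripts tested were called in either direction, and 7 at 24 h, where 30.3% were. The counts were 2 at 15 min (background 4.93%) and 2 at 4 h (6.12%). None was called at 30 min (0.830%), 1 h (1.85%) or 2 h (2.66%), where 2, 3 and 5 of the 14 had an unadjusted p under 0.05. For HCT6, transcript 2 rose from 12.7 ± 6.21 TPM (SD, n = 3) in the controls to 45.1 ± 0.62 TPM (SD, n = 3) at 8 h (log2 difference 1.84, adjusted p = 0.00444). Transcript 1 of HCT6 stood at 3.87 ± 3.42 TPM (SD, n = 3) in the controls and 0.185 ± 0.32 TPM (SD, n = 3) at 8 h, and was not called (adjusted p = 0.149). For C3H3, transcript 3 carried most of the level and rose from 119 to 346 TPM at 8 h (1.53, adjusted p = 3.5e-05), while transcript 1 went from 19.4 to 38.2 TPM without a call (adjusted p = 0.106). The main C4H1 transcript, transcript 1, rose from 332 to 1498 TPM at 8 h (2.17, adjusted p = 9.74e-05). Transcript 2 of C4H1 was minor throughout, at 2.49 TPM in the controls, 8.54 TPM at 4 h and 1.55 TPM at 8 h, and it fell from 4 h to 8 h (-1.87, adjusted p = 0.0302), a step in which 16.6% of all transcripts were called. The main transcript went from 872 to 1498 TPM in that step, without a call (adjusted p = 0.086). Transcripts of a gene share sequence, so the division of reads between them is an estimate.

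Likeness among the 10 genes was described by Pearson's r over the 8 group means, points that share the same libraries. Against the mean profile of the other 9 genes, HCT1 had r = 0.96, HCT6 0.94, C4H2 0.91, CCR2 0.84, C3H3 0.84, 4CL3 0.83 and C4H1 0.79. CAD1 stood lower at 0.56, and CCoAOMT2 (0.17) and CCoAOMT1 (-0.08) were least like the rest. Among 16891 other genes averaging 5 TPM or more, Potri.014G038600 (0.98) and Potri.006G150100 (0.97) were most like the mean profile of the 10, and Potri.011G070300 (-0.98) and Potri.010G217100 (-0.97) ran most opposite to it. The moderated F test did not call Potri.014G038600 (adjusted p = 0.0544) or Potri.011G070300 (0.0901). It called Potri.006G150100 (0.000999) and Potri.010G217100 (0.017). Of the listed identifiers of the route, Potri.003G188500 had the highest r with the mean profile (0.945), and Potri.008G038200 had 0.91. The lowest were 0.149 for Potri.003G059200, -0.061 for Potri.001G175000 and -0.358 for Potri.008G136600, which averaged 1.71 TPM.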

How the data were processed

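The labels describe RNA-seq of poplar root pools after LCO treatment. Of 24 labelled samples, 22 have a column in the deposited tables. 30 min replicate 2 and 2 h replicate 3 are not analysed here, so the fit drops them. Per the file headers and values, the authors deposited natural log values of TPM + 1, and the totals of 936253 to 936552 TPM per library under base e (204126 to 204330 under base 2) settled the base. The authors named the deposited tables as quantile-normalized, which gives every library nearly one distribution and can hide a shift of all genes at once. The submitters' processing notes name kallisto and sleuth. No source used here names a genome build, other than the ending v3.1 that the transcript identifiers carry.

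From these values log2(TPM + 1) was computed and fitted with limma 3.58.1 in R 4.3.3, with 1 mean per group, all 22 libraries, eBayes with trend and a two-sided test on 14 residual degrees of freedom before moderation. Genes with a mean under 1 TPM were left out. Ratios within a gene pair were tested by exact permutation. Figures were drawn with matplotlib 3.10.9 in Python 3.11.15. The code was tested on simulated data. Alternatives were pseudocounts of 0.1 and 5, no filter on low values, library weights, genes at 0 as a covariate, a replicate block, fits to the libraries of both groups alone, fits without the libraries that stand apart, and fits without each replicate. All 10 genes are named by rule. Of the 13 other listed identifiers, those printed were chosen after their values were seen. The 2 genes most like and the 2 least like the mean profile are named by rule. The members and lists were chosen with earlier results of these data known. Markers of shoot tissue were not checked, since no annotation was used here, and no sequence is shown for the same reason.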

Additional observations from a re-analysis of the deposited data

Results flagged for a closer look

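The level of 8 of the 10 genes differed between sampled times compared in limma, either 1 h with 4 h or 4 h with 8 h. The first of these steps passes over the 2 h libraries. The control means cancel out of these comparisons, which test the change over time after treatment and no effect of LCO against control. Between 1 h and 4 h the difference was 1.035 for C4H1 (adjusted p = 0.0302) and 0.8086 for CAD1 (adjusted p = 0.00863), on the log2(TPM + 1) scale. Between 4 h and 8 h it was 0.7497 for C4H2 (adjusted p = 0.0277), 0.77 for 4CL3 (adjusted p = 0.0405), 0.7031 for HCT1 (adjusted p = 0.0247), 1.098 for HCT6 (adjusted p = 0.0299), 0.8877 for C3H3 (adjusted p = 0.00297) and 0.7844 for CCR2 (adjusted p = 0.0312). Of all genes, 5.48% were called higher from 1 h to 4 h and 9.47% from 4 h to 8 h. C3H3 was called in each fit with a library of the step left out, and the other 7 genes each lost the call in at least 1 such fit, with 0 to 2 genes called in the first step and 1 to 4 in the second.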

How the results depend on the processing

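Of the 32 calls among the 10 genes, 17 were kept in every alternative tried and none changed sign. Of the 68 differences not called, 56 never passed and 16 changed sign under some alternative. The 15 min count of 5 was 3 with no filter on low values, 9 with library weights, 8 without both 15 min replicate 2 and 30 min replicate 3, and 0 in the fit to the libraries of both groups alone. Over all genes, the calls at 15 min went from 2066 to 1742, 9491, 6761 and 240 under these alternatives, in that order. The count of members was 1 to 7 with a replicate left out. The 1 h count of 0 became 1 with library weights or without both libraries, and 0 to 1 with a replicate left out. The 4 h count of 4 was 2 to 3 with a replicate left out. The count from 1 h to 4 h went from 2 to 1 with no filter, with genes at 0 as a covariate or in the fit to both groups alone, and was 0 to 2 with a replicate left out. The count from 4 h to 8 h went from 6 to 3 with genes at 0 as a covariate, and was 1 to 4 with a replicate left out. From 8 h to 24 h library weights gave 3 calls and leaving out both libraries 1. The C4H1 to C4H2 ratio difference was 1.232 to 1.349 and that of the CCoAOMT pair -0.467 to -0.354 with a library left out. Signs changed for differences not called. Without both libraries, 30 min values were -0.066 for C4H1, -0.04 for C4H2 and -0.115 for CCR2. With library weights CCR2 at 30 min was -0.014 and C4H2 from 1 h to 4 h was 0.006. With genes at 0 as a covariate CCR2 at 1 h was 0.134 and 4CL3 from 8 h to 24 h was -0.013. With a replicate left out, 30 min ranges were -0.066 to 0.535 (C4H1), -0.04 to 0.614 (C4H2), -0.116 to 0.809 (CCoAOMT1), -0.115 to 0.237 (CCR2) and -0.108 to 0.284 (CAD1). CCR2 ranged from -0.191 to 0.005 at 1 h and -0.032 to 0.253 at 2 h, and CAD1 from -0.021 to 0.235 at 1 h. CCoAOMT1 ranged from -0.006 to 0.137 at 4 h, -0.149 to 0.021 at 8 h and -0.137 to 0.108 at 24 h. From 1 h to 4 h C4H2 ranged from -0.133 to 0.083 and HCT6 from -0.481 to 0.016. From 8 h to 24 h 4CL3 ranged from -0.097 to 0.211, CCoAOMT1 from -0.078 to 0.166 and CCoAOMT2 from -0.339 to 0.103. The causes were not tested. At 30 min, 47.1% of calls over all genes were higher, against 24.4% with library weights, 35.4% with genes at 0 as a covariate and 30.6% without both libraries. Leaving a replicate out of a group of 2 left 1 sample, assumed to vary like the other groups. The alternative counts of the 13 listed identifiers were chosen after seeing the data. With the replicate number as a block, the counts were 4, 0, 0, 0, 3, 8 and 7 over the 7 times. CCR2 at 15 min (adjusted p = 0.0605) and HCT1 at 4 h (adjusted p = 0.0636) were no longer called, and the block changed no other call. The main fit did not pair samples by number. Deviations of same-numbered libraries correlated at -0.16 to 0.229, over 0.1 in 8 of 19 pairs. Of the 19, 11 correlated best with the control of their own number. Whether the numbers pair part of the samples was not tested. Depth, which TPM do not keep, could not be weighed.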
